A study of Homo sapiens with 16 samples.

Results

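The comparison asked how the transcript response to azacitidine (AZA) of HNT-34 cells differed from that of KG1a cells, both established human acute myeloid leukaemia lines. It rests on 8 of the 16 arrays of the study, which profiled 4 lines in all. The groups were HNT-34 with AZA, HNT-34 with vehicle, KG1a with AZA and KG1a with vehicle, 2 arrays each. AZA was given at 0.5 µM on each of 3 days and was followed by 4 days without drug. The vehicle was DMSO on the same schedule, and all cells grew in a light-label SILAC medium made for mass spectrometry. The measure is a difference of differences, the HNT-34 change (AZA minus vehicle) minus the KG1a change, on the log2 scale over 14038 genes. A positive difference means that AZA moved the gene further up, or less far down, in HNT-34 than in KG1a. Each line is a single line and stands for itself alone. Nothing in the labels tells whether replicate arrays stem from separate cultures. The p-values therefore reflect the spread among these arrays only, and that spread may be technical.

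AZA is an analogue of cytidine that cells incorporate into their nucleic acids. In DNA it traps the DNA methyltransferases, so that methylation is lost as cells divide, and genes silenced by methylated promoters, such as those of the germline, can become active. In myeloid leukaemia it is used as a drug, and changes of blood lineage genes after exposure have often been described. ATF4, the central regulator of the amino acid response, drives genes for amino acid synthesis, import and tRNA charging. Cholesterol synthesis is run by a separate sterol-sensing system.

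RNA control signals differed little between the arms of HNT-34 and KG1a. The excess of 3′ over 5′ control signal (ACTB and GAPDH probe sets), which is larger in degraded RNA, was -0.10 ± 0.01 with AZA and 0.00 ± 0.11 with vehicle in HNT-34 (log2, SD, n = 2 each). In KG1a it was 0.06 ± 0.00 with AZA and 0.03 ± 0.13 with vehicle. The AZA arrays of HNT-34 (-0.09 and -0.11) both lay below its vehicle arrays (-0.08 and 0.07), while those of KG1a lay between its vehicle arrays. With this signal as a covariate 2333 genes were called for the difference of responses, against 2130 without it. MECOM, a transcription factor gene rearranged in some leukaemias and known to be active in HNT-34, read 11.86 to 12.42 on the HNT-34 arrays and 4.32 to 4.58 on the KG1a arrays. The stem cell antigen gene CD34 read 12.42 to 12.64 in KG1a, and the leukocyte gene PTPRC read 11.95 to 13.25 over the 8 arrays, while the epithelial gene EPCAM read 3.99 to 4.41, near the lowest values of the arrays (3.26). Replicate arrays of these lines correlated across genes at 0.995 to 0.998, AZA with vehicle arrays at 0.974 to 0.976 in HNT-34 and at 0.988 to 0.990 in KG1a. The RNA of whole cultures was measured, so fewer cells of a type and less RNA per cell cannot be told apart.

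AZA moved more genes, and by more, in HNT-34 than in KG1a. The responses differed in 2130 of the 14038 genes (15.2%) at a Benjamini-Hochberg adjusted p under 0.05 in limma, which is what "called" means below. The HNT-34 change was above the KG1a change in 993 of them (7.07%) and below it in 1137 (8.1%). The difference was at least 2-fold in 443 genes (3.16%), 209 above (1.49%) and 234 below (1.67%). In HNT-34 itself AZA moved 4245 genes (30.2%), with 2165 higher (15.4%) and 2080 lower (14.8%), and 484 of these changes were at least 2-fold (3.45%), 318 rises (2.27%) and 166 falls (1.18%). In KG1a it moved 1394 genes (9.93%), with 921 higher (6.56%) and 473 lower (3.37%), and 132 rises (0.94%) and 10 falls (0.0712%) were at least 2-fold (1.01%). KG1a AZA array 1, KG1a AZA array 2 and KG1a vehicle array 1 each weigh on the KG1a count, which was 698, 688 and 878 genes without them. The standard deviation of the changes over all genes was 0.442 in HNT-34 and 0.275 in KG1a, around medians of 0.007 and 0.015.

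Among the 2130 genes with different responses, the larger change was in HNT-34 for 1685 (79.1%) and in KG1a for 445 (20.9%). The lines share no arrays, and over all genes their changes correlated at 0.391 (Spearman 0.357), a description across genes, which are not independent replicates. Both lines raised 449 genes (3.2%) and both lowered 227 (1.62%). Another 39 genes (0.278%) rose in HNT-34 and fell in KG1a, and 77 (0.549%) fell in HNT-34 and rose in KG1a. The smallest difference called was 0.29, and the median standard error of the difference was 0.139.

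**Figure D1:**
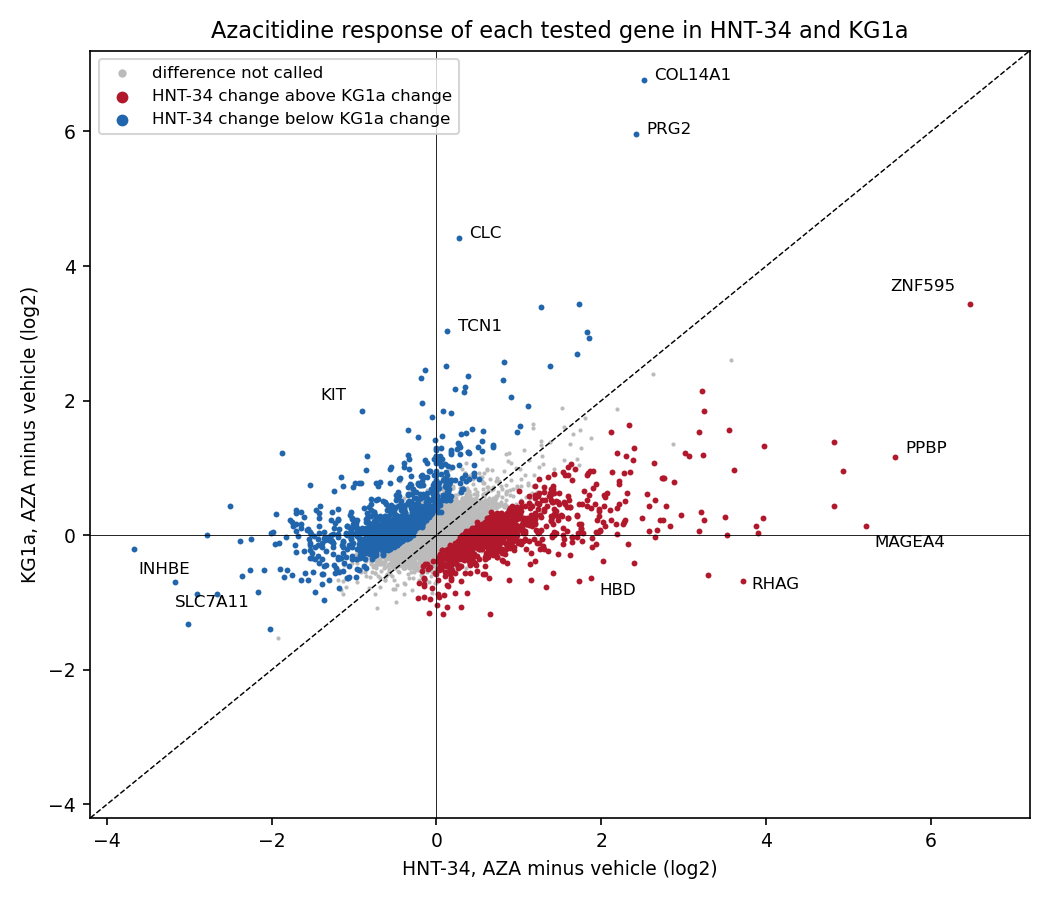
Each point is 1 of the 14038 genes, with its change in HNT-34 (AZA minus vehicle, log2) on the horizontal axis and in KG1a on the vertical axis. Red points are the 993 genes whose HNT-34 change was called above the KG1a change, blue points the 1137 called below it, and the dashed line marks equal changes. Named genes lie far from that line, with RHAG and KIT where the changes have opposite signs.

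Genes that were near the lower end of the signal range in vehicle cells and rose in HNT-34 with little change in KG1a made up much of the upper end of the ranking. MAGEA4, a cancer-testis antigen gene of the X chromosome that is normally active in male germ cells, led. It read 10.11 and 9.88 in HNT-34 with AZA and 4.82 and 4.76 in HNT-34 with vehicle. In KG1a it read 4.81 and 4.99 with AZA and 4.76 on each vehicle array. The HNT-34 AZA arrays stood alone, a 36.9-fold rise there against 1.11-fold in KG1a, and the difference was 5.06 ± 0.17 (SE, adjusted p = 1.86e-09). SLITRK6, a transmembrane protein gene of neurons and the inner ear, read 10.73 and 10.90 in HNT-34 with AZA against 5.96 and 6.0 with vehicle, and 5.62 and 5.71 in KG1a with AZA against 5.20 and 5.27 with vehicle. Its difference was 4.40 ± 0.19 (adjusted p = 1.38e-08).

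ZNF595, a zinc finger gene of chromosome 4, rose in both lines, but further in HNT-34. It read 11.25 and 11.16 in HNT-34 with AZA against 4.81 and 4.65 with vehicle, and 8.22 and 8.08 in KG1a with AZA against 4.79 and 4.64 with vehicle. The vehicle levels of the lines overlapped while the AZA levels did not, and the difference was 3.03 ± 0.18 (adjusted p = 1.34e-07), from an 88.5-fold rise in HNT-34 and a 10.8-fold rise in KG1a.

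The promoters of MAGEA4 and ZNF595 are shown because CpG sites are where DNA methylation sits. Each run is the 250 bases before the annotated start in RefSeq (assembly GRCh38.p14), 5′ to 3′ on the strand of the gene, with every CG in capitals. MAGEA4 lies on the plus strand (chrX:151912224-151912473) and holds 6 CG pairs, and ZNF595 on the plus strand (chr4:53071-53320) holds 10.
MAGEA4: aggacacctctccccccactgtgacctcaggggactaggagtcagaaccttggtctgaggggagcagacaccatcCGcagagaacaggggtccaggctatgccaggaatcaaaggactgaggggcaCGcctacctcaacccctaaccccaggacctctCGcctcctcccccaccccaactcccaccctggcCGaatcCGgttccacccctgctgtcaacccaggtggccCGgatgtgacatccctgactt
ZNF595: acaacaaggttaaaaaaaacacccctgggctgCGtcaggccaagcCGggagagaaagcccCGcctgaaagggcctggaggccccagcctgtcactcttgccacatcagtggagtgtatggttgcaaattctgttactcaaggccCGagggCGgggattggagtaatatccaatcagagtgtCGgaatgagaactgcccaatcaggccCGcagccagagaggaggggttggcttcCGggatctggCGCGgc

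RefSeq promoters were matched for 11212 of the 14038 genes, and their median was 20 CG pairs in these 250 bases. Genes with a difference of at least 2-fold had fewer, with a median of 11 over the 158 matched genes above 0 and 13.5 over the 178 below 0. Genes that rose at least 2-fold had a median of 12 in HNT-34 (249 matched) and of 7 in KG1a (106 matched). These are descriptions of the gene sets, and methylation was not analysed here.

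Of 19 cancer-testis and germline genes tested, 7 had a called difference above 0 and 2 below (47.4%, against 15.2% over all genes). The filter kept 19 of the 46 members with a probe set. A gene silent with vehicle could pass it through the arrays where it rose, so this share is not independent of the response. With no filter on dim genes 13 of the 46 were called above 0 and 2 below, where 1888 of 19775 genes were called in all. The list median of the difference was 0.42, against -0.01 over all genes, with 12 members called higher in HNT-34 and 7 in KG1a. MAGEA6 (2.71 ± 0.24), MAGEA1 (2.59 ± 0.18), the synovial sarcoma breakpoint gene SSX1 (1.90 ± 0.13) and the germ cell nuclear gene GCNA (2.66 ± 0.18) followed MAGEA4 in size. MAGEA1 read 9.0 and 9.23 in HNT-34 with AZA against 6.56 and 6.31 with vehicle, and 5.87 and 5.95 in KG1a with AZA against 5.83 and 5.82 with vehicle. GTSF1, which acts with germline small RNAs, ran the other way (-2.59 ± 0.14). It was already bright in HNT-34, at 12.74 and 12.78 with AZA and 12.84 and 12.96 with vehicle, and read 9.25 and 9.20 in KG1a with AZA against 6.95 and 6.60 with vehicle. Probe sets of MAGEA6 and of other members of large families can take up transcripts of near-identical copies.

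Other large positive differences included those of several signalling and surface genes. EGR3, an immediate early transcription factor gene, read 10.61 and 10.78 in HNT-34 with AZA against 6.96 and 6.63 with vehicle, and stayed between 5.73 and 5.95 on all KG1a arrays (difference 3.87 ± 0.24). AKAP12, a scaffold of protein kinase A, rose by 3.96 in HNT-34 with a change of 0.26 in KG1a. PRKAR2B, a regulatory subunit of the same kinase, rose by 3.5 with a change of 0.27 in KG1a. INHBA, a subunit of activin, read 9.45 and 9.59 in HNT-34 with AZA against 5.83 and 6.17 with vehicle, and 5.43 to 5.76 over the KG1a arrays. The gap junction gene GJA1 rose in both lines, by 4.82 in HNT-34 and 1.39 in KG1a. Further differences were those of HGD, an enzyme of tyrosine breakdown (3.74 ± 0.11), RLN3, a relaxin family peptide gene (3.12 ± 0.16), and MGP, an inhibitor of tissue calcification (3.03 ± 0.11). In each of these 8 genes the AZA arrays of HNT-34 lay above its vehicle arrays. That adds no support, since the genes were chosen for large differences whose array differences did not overlap.

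**Figure D2:**
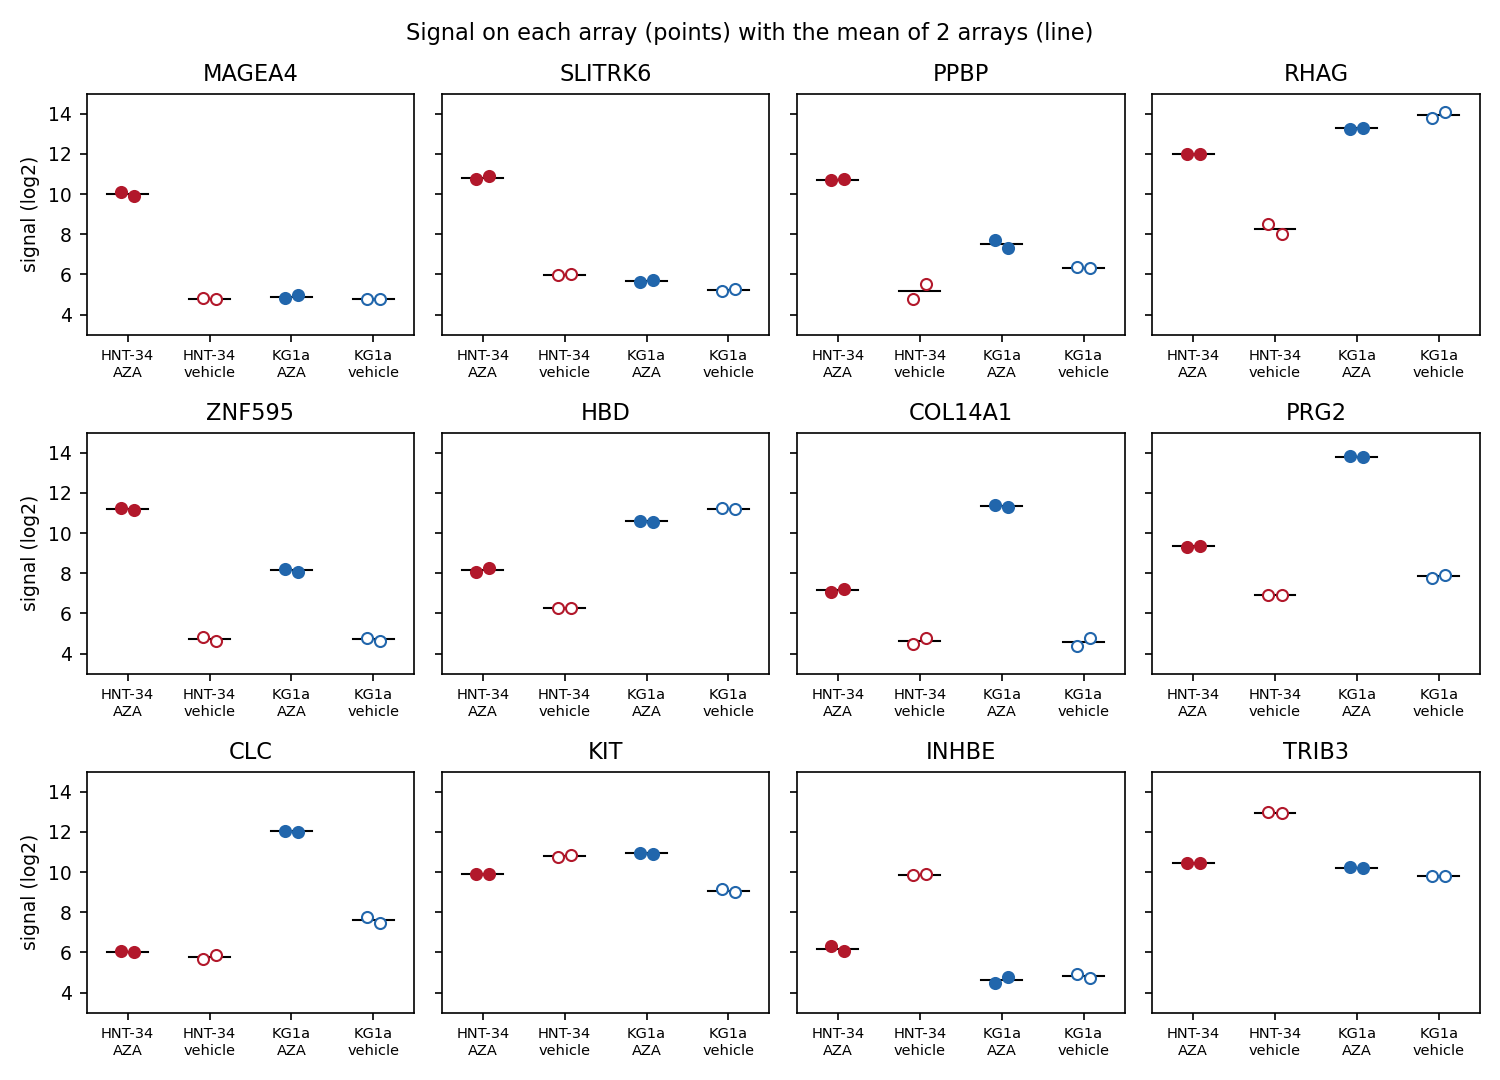
Log2 signal of 12 genes on each array, in HNT-34 (red) and KG1a (blue), with AZA (filled) and vehicle (open), and a line at the mean of the 2 arrays. MAGEA4 is high on the HNT-34 AZA arrays alone, RHAG and HBD move in opposite directions in the lines, CLC and PRG2 reach their highest levels in KG1a with AZA, and INHBE and TRIB3 are highest in HNT-34 with vehicle.

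Many genes of the ATF4 and amino acid lists fell in HNT-34 and moved less in KG1a. Regulation by ATF4 was not tested. In the union of 6 lists (ATF4 regulators and secreted targets, serine and one-carbon, asparagine and proline, cystine and glutathione, amino acid transporters, aminoacyl-tRNA synthetases), 38 of 75 genes had a called difference below 0 and 2 above. That is 53.3% called, against 15.2% over all genes, and the median difference was -0.37. In HNT-34 44 of the 75 fell and 5 rose (median -0.52), and in KG1a 17 fell and 7 rose (median -0.08). Between 33 and 43 genes were called below 0 under the alternatives tried.

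Among the regulators and secreted targets, 12 of 17 were called below 0 and 0 above (70.6%, against 15.2% over all genes). The median change was -1.27 in HNT-34 against 0.02 in KG1a. INHBE, an activin subunit gene, read 6.31 and 6.07 in HNT-34 with AZA against 9.85 and 9.89 with vehicle. In KG1a it read 4.50 and 4.78 with AZA against 4.93 and 4.75 with vehicle, low values at which changes are compressed. The difference was -3.47 ± 0.19 (adjusted p = 6.83e-08). TRIB3, a pseudokinase that restrains ATF4, fell in HNT-34 to 10.45 on each AZA array against 12.97 and 12.95 with vehicle. In KG1a it rose, to 10.23 and 10.22 with AZA against 9.80 and 9.79 with vehicle, and the difference was -2.93 ± 0.14 (adjusted p = 3.38e-08). With AZA the TRIB3 levels of the lines were close, while with vehicle HNT-34 was above KG1a by 3.16.

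The stress transcription factor genes moved likewise. DDIT3, also known as CHOP, read 9.48 and 9.55 in HNT-34 with AZA against 10.85 and 10.98 with vehicle, and 9.04 and 9.0 in KG1a with AZA against 8.55 and 8.61 with vehicle. Its difference was -1.85 ± 0.10, and that of ATF5 -1.87 ± 0.13, although probe sets of ATF5 ranged from -1.87 to -0.14. ATF3 fell by 1.72 in HNT-34 and changed by -0.14 in KG1a. CHAC1, which cleaves glutathione, fell in both lines, by 2.91 in HNT-34 and 0.87 in KG1a. ATF4 itself, whose protein is governed largely at translation and which is named here after its values were seen, fell by 0.60 in HNT-34 and 0.36 in KG1a, and the difference was not called (-0.24 ± 0.09, adjusted p = 0.101).

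Genes of amino acid synthesis followed. ASNS, asparagine synthetase, read 11.53 and 11.60 in HNT-34 with AZA against 13.77 and 13.54 with vehicle, and 9.67 and 9.70 in KG1a with AZA against 10.19 and 10.21 with vehicle. It fell in both lines, further in HNT-34 (difference -1.57 ± 0.13, adjusted p = 4.38e-06). PCK2, the mitochondrial phosphoenolpyruvate carboxykinase, had a difference of -1.74 ± 0.12. PHGDH, which opens serine synthesis, fell by 2.66 in HNT-34 and 0.87 in KG1a. PSAT1, the next enzyme of that route, went the other way. It read 7.61 and 7.46 in HNT-34 with AZA against 7.38 and 7.43 with vehicle, and 11.55 and 11.54 in KG1a with AZA against 12.43 and 12.81 with vehicle. The fall was thus in KG1a, where the gene was bright (difference 1.20 ± 0.26, adjusted p = 0.00617).

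Transporters and synthetases completed the group. SLC7A11, the cystine importer, read 7.91 and 7.98 in HNT-34 with AZA against 11.02 and 11.21 with vehicle, and 9.61 and 9.70 in KG1a with AZA against 10.48 and 10.23 with vehicle (difference -2.47 ± 0.14, probe sets -2.47 to -0.87). SLC3A2, the shared heavy chain of several such carriers, fell by 1.31 in HNT-34 with -0.07 in KG1a. SLC1A4, a carrier of neutral amino acids, fell by 1.65 in HNT-34 and rose by 0.35 in KG1a. Of 12 amino acid transporter genes 6 were called below 0 and 1 above (58.3%, against 15.2% over all genes). Of 17 aminoacyl-tRNA synthetase genes 9 were called below 0 and 0 above (52.9%), led by WARS1 (-1.75 ± 0.10), AARS1 (-1.11 ± 0.09) and GARS1 (-0.78 ± 0.11). EPRS1 (-0.64 ± 0.10) lost its call when its probe sets were averaged. Of 10 cystine import and glutathione genes only SLC7A11 and SLC3A2 were called (20%, near the 15.2% over all genes), and 8 were not.

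Promoters of this group are shown with the amino acid response motif TGATGNAA, searched on both strands, in capitals (its reverse reads TTNCATCA). The motif was found in 7 of the 64 promoters matched for the 6 lists (10.9%), those of AARS1, ASNS, ATF3, BCAT1, CHAC1, GOT1 and IARS1, and in 1.61% of all 11212. The promoters of TRIB3, DDIT3, ATF5, PCK2, PHGDH, SLC3A2 and WARS1, which had large differences, held 0 matches. None was found in the 12 matched promoters of the transporter list. The share was 15.8% in the T and NK cell list (3 of 19), 15% in the granule list (3 of 20) and 14.3% in the B cell list (1 of 7), so it was not particular to the amino acid lists. Among genes with a difference below 0 of at least 2-fold the share was 9.55%. Each run is the 250 bases before the start in RefSeq (GRCh38.p14): ASNS on the minus strand (chr7:97872409-97872658), CHAC1 on the plus strand (chr15:40953221-40953470), ATF3 on the plus strand (chr1:212565157-212565406) and AARS1 on the minus strand (chr16:70289507-70289756). The matches lie 68 to 209 bases before the start, and a match of letters does not say that a factor binds there.
ASNS: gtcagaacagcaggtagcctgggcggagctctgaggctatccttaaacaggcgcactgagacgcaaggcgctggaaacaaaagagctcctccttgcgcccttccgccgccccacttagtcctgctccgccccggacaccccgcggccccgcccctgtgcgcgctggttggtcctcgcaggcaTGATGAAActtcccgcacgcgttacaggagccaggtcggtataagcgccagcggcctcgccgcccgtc
CHAC1: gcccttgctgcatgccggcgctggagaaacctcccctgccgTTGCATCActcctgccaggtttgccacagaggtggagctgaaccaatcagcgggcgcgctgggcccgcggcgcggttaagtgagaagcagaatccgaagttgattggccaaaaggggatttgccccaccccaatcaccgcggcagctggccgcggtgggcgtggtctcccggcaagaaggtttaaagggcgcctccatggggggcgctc
ATF3: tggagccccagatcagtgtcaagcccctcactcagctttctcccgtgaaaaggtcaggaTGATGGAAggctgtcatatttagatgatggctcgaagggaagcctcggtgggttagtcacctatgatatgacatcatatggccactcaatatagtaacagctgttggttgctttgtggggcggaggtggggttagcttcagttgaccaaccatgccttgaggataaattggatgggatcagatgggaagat
AARS1: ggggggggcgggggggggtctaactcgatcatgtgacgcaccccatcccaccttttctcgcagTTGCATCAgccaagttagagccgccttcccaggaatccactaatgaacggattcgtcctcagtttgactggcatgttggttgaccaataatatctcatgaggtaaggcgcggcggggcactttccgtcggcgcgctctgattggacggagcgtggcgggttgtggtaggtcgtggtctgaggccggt

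Cholesterol synthesis genes rose in HNT-34, and their responses differed from those of KG1a. Of 19 tested, 14 had a called difference above 0 and 0 below (73.7%, against 15.2% over all genes), and the alternatives gave 12 to 15. In HNT-34 15 rose and 0 fell (median 0.68), and in KG1a 0 of the 19 was called in limma (median -0.08; 2 higher and 1 lower at an unadjusted p under 0.05). HMGCS1, the synthase ahead of the rate-limiting step, read 9.64 and 9.58 in HNT-34 with AZA against 8.12 and 8.04 with vehicle. In KG1a its 4 arrays lay between 10.12 and 10.16, above every HNT-34 array, and the difference was 1.53 ± 0.12 (adjusted p = 2.19e-06). INSIG1, which holds back the sterol-sensing machinery, read 11.58 on each HNT-34 AZA array against 10.37 and 10.34 with vehicle, and 11.33 and 11.27 in KG1a with AZA against 11.33 and 11.50 with vehicle (difference 1.34 ± 0.12). The squalene epoxidase gene SQLE (1.44 ± 0.32), MSMO1 (1.13 ± 0.11), DHCR7, which makes the last step of the route (1.11 ± 0.13), and IDI1 (0.89 ± 0.11, probe sets -0.21 to 1.07) had the next differences. The sterol motif TCACNCCAC, searched on both strands, was found in 1 of 17 matched promoters of the list and in 0.847% of all. Of 9 fatty acid synthesis genes 1 was called above 0 and 0 below (11.1%, near the 15.2% over all genes). It was FADS2 (0.54 ± 0.15), a call lost in most fits that left out 1 array.

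**Figure D3:**
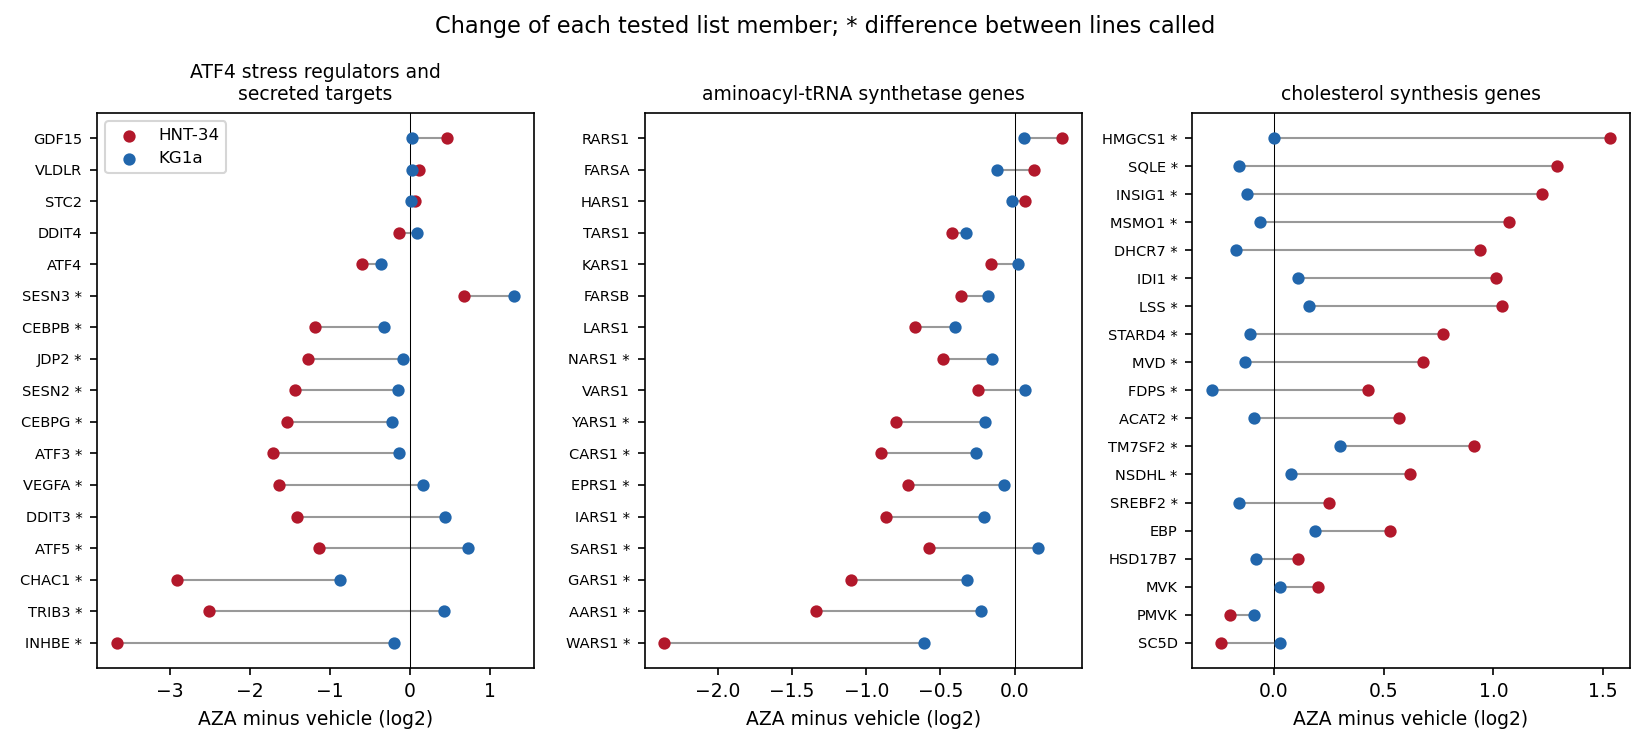
Change with AZA (log2) of each tested member of 3 lists, in HNT-34 (red) and KG1a (blue), sorted by the difference, with an asterisk where the difference was called. The 12 called ATF4 regulators and targets lie further left in HNT-34, as do 9 tRNA synthetases, and 14 cholesterol genes lie further right.

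Megakaryocyte and platelet genes responded more strongly upward in HNT-34. Of 22 tested, 12 had a called difference above 0 and 1 below (59.1%, against 15.2% over all genes), with a median of 0.85 in HNT-34, where 17 rose, and of 0.22 in KG1a, where 6 rose. PPBP, a platelet chemokine gene, read 10.68 and 10.74 in HNT-34 with AZA against 4.79 and 5.52 with vehicle, and 7.70 and 7.30 in KG1a with AZA against 6.35 and 6.34 with vehicle. It rose in both lines, 47.1-fold in HNT-34 and 2.23-fold in KG1a (difference 4.40 ± 0.27, adjusted p = 1.99e-07). F2RL2, of the thrombin receptor family, read 9.53 and 9.50 in HNT-34 with AZA against 4.57 and 4.61 with vehicle, and 5.84 and 5.22 in KG1a with AZA against 4.64 and 4.51 with vehicle (difference 3.97 ± 0.22). CLEC1B, a platelet activating receptor (1.99 ± 0.19), the cyclooxygenase gene PTGS1 (1.57 ± 0.16) and PLEK, a platelet kinase substrate (1.34 ± 0.15), came next. ITGA2B, the platelet integrin gene, was the member called below 0 (-0.81 ± 0.18), as it rose by 1.11 in HNT-34 and by 1.92 in KG1a.

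Erythroid genes were called above 0 in 8 of 20 members and below 0 in 2 (50%, against 15.2% over all genes). The Rh-associated glycoprotein gene RHAG showed the lines moving apart in direction. It read 11.99 on each HNT-34 AZA array against 8.53 and 8.02 with vehicle, a 13.2-fold rise. In KG1a, where it was among the bright genes, it fell to 13.23 and 13.29 with AZA against 13.80 and 14.08 with vehicle, and the difference was 4.40 ± 0.22 (adjusted p = 3.69e-08). HBD, the delta globin gene, read 8.04 and 8.25 in HNT-34 with AZA against 6.29 and 6.25 with vehicle, and 10.59 and 10.56 in KG1a with AZA against 11.23 and 11.19 with vehicle (difference 2.51 ± 0.13). It too rose in HNT-34 and fell in KG1a, and the levels of the lines did not overlap in either arm. The embryonic globin genes HBE1 (1.47 ± 0.18) and HBZ (1.01 ± 0.19) and the erythroid transcription factor gene KLF1 (1.10 ± 0.16) had smaller differences. The carbonic anhydrase gene CA1 ran the other way (-0.82 ± 0.19), a call lost without HNT-34 vehicle array 2, HNT-34 AZA array 2 or KG1a AZA array 2. The median difference of the list was 0.13, lower than that of the megakaryocyte list (0.59), and the summed signal of its 22 genes with a probe set was 14.82 to 14.86 in HNT-34 with AZA, 14.22 to 14.24 with vehicle, 15.28 to 15.32 in KG1a with AZA and 15.36 to 15.44 with vehicle (log2).

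The promoters of PPBP and HBD are shown because their genes lead the platelet and globin groups and both hold the GATA motif AGATAA, in capitals (searched on both strands, reverse TTATCT). It was found in 5 of 12 matched erythroid promoters (41.7%), in 4 of 16 of the megakaryocyte list (25%) and in 5.16% of all. The promoter of RHAG, the erythroid gene with the largest difference, held 0 matches. Shares above that of all genes were also seen in the interferon list (17.4%) and the granule list (15%). Among genes with a difference above 0 of at least 2-fold the share was 13.9%, and among KG1a rises of that size 17%. A match of letters does not say that a factor binds there. The runs are the 250 bases before the RefSeq start, both on the minus strand, at chr4:73988191-73988440 for PPBP and chr11:5234484-5234733 for HBD (GRCh38.p14).
PPBP: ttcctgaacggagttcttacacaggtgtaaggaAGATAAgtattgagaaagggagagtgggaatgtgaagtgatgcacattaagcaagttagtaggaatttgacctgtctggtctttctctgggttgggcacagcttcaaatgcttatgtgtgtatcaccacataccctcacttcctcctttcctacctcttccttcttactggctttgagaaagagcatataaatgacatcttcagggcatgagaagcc
HBD: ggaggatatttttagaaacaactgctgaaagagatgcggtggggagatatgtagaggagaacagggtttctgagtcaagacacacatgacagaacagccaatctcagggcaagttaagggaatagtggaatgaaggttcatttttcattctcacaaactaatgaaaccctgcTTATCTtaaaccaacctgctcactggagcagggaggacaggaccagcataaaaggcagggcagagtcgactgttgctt

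Granule genes of eosinophils and neutrophils were among those with large rises in KG1a. Of 27 tested, 7 had a called difference below 0 and 2 above (33.3%, against 15.2% over all genes). In HNT-34 5 rose, where 15.4% of all genes did, and in KG1a 8 rose, where 6.56% of all genes did. PRG2, the major basic protein of eosinophil granules, read 9.30 and 9.37 in HNT-34 with AZA against 6.90 and 6.92 with vehicle, and 13.81 and 13.80 in KG1a with AZA against 7.77 and 7.91 with vehicle. It rose in both lines, 5.36-fold in HNT-34 and 62.4-fold in KG1a, and the difference was -3.54 ± 0.10 (adjusted p = 2.82e-10). CLC, the Charcot-Leyden crystal protein of eosinophils and basophils, read 6.07 and 6.0 in HNT-34 with AZA against 5.65 and 5.87 with vehicle, and 12.06 and 11.99 in KG1a with AZA against 7.75 and 7.46 with vehicle. Its rise was called in KG1a (4.42, 21.4-fold) and not in HNT-34 (0.27), with a difference of -4.14 ± 0.25.

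Further granule genes split by line. TCN1, a vitamin B12 carrier of neutrophil granules, read 6.78 and 6.60 in HNT-34 with AZA against 6.69 and 6.43 with vehicle, and 12.28 and 12.22 in KG1a with AZA against 9.17 and 9.26 with vehicle (difference -2.91 ± 0.21). MS4A3, a membrane protein of early granulocytes, rose by 1.27 in HNT-34 and by 3.39 in KG1a. CTSG, the cathepsin G protease of neutrophil granules, fell in HNT-34, to 7.67 and 7.61 with AZA against 10.48 and 10.38 with vehicle, and read 10.24 on each KG1a AZA array against 10.12 and 10.35 with vehicle (difference -2.79 ± 0.13). GFI1, a repressor that guides granulocyte formation, fell by 0.94 in HNT-34 and rose by 0.77 in KG1a. TPSB2, a mast cell tryptase whose probe set can also detect its near-identical neighbour, rose by 2.51 in KG1a with a change of 0.11 in HNT-34.

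COL14A1, a collagen of connective tissue, had the largest negative difference, -4.25 ± 0.21 (adjusted p = 4.07e-08). It read 7.06 and 7.23 in HNT-34 with AZA against 4.46 and 4.79 with vehicle, and 11.39 and 11.31 in KG1a with AZA against 4.39 and 4.77 with vehicle. The vehicle levels of the lines overlapped and both rose with AZA, 5.74-fold in HNT-34 and 109-fold in KG1a, and its probe sets ranged from -4.38 to -1.09. CSTA, a cysteine protease inhibitor, rose by 2.33 in KG1a with a change of -0.19 in HNT-34. Among 16 fibroblast and matrix genes 2 were called above 0 and 3 below (31.2%, against 15.2% over all genes). The filter kept 16 of the 27 members with a probe set. COL14A1, dim with vehicle in both lines, passed it through arrays where it rose, so this share is not independent of the response. Those above were S100A6 (1.89 ± 0.23) and the crosslinking enzyme gene LOXL1 (1.41 ± 0.20). Those below were COL14A1, VIM (-0.99 ± 0.20) and COL5A1 (-0.47 ± 0.13, a call lost in 7 of the 8 fits that left out 1 array). COL1A1, a defining fibroblast gene, read 9.75 and 9.79 in HNT-34 with AZA against 9.79 and 9.88 with vehicle, and 9.58 and 9.72 in KG1a with AZA against 9.43 and 9.62 with vehicle. Among 10 epithelial genes 0 was called in limma (0 higher and 2 lower at an unadjusted p under 0.05). Among 9 B cell genes (22.2% called) 1 was above 0 (VPREB1, 0.95 ± 0.20) and 1 below (CD79A, -0.42 ± 0.12, a call lost in 5 of the 8 fits that left out 1 array).

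**Figure D4:**
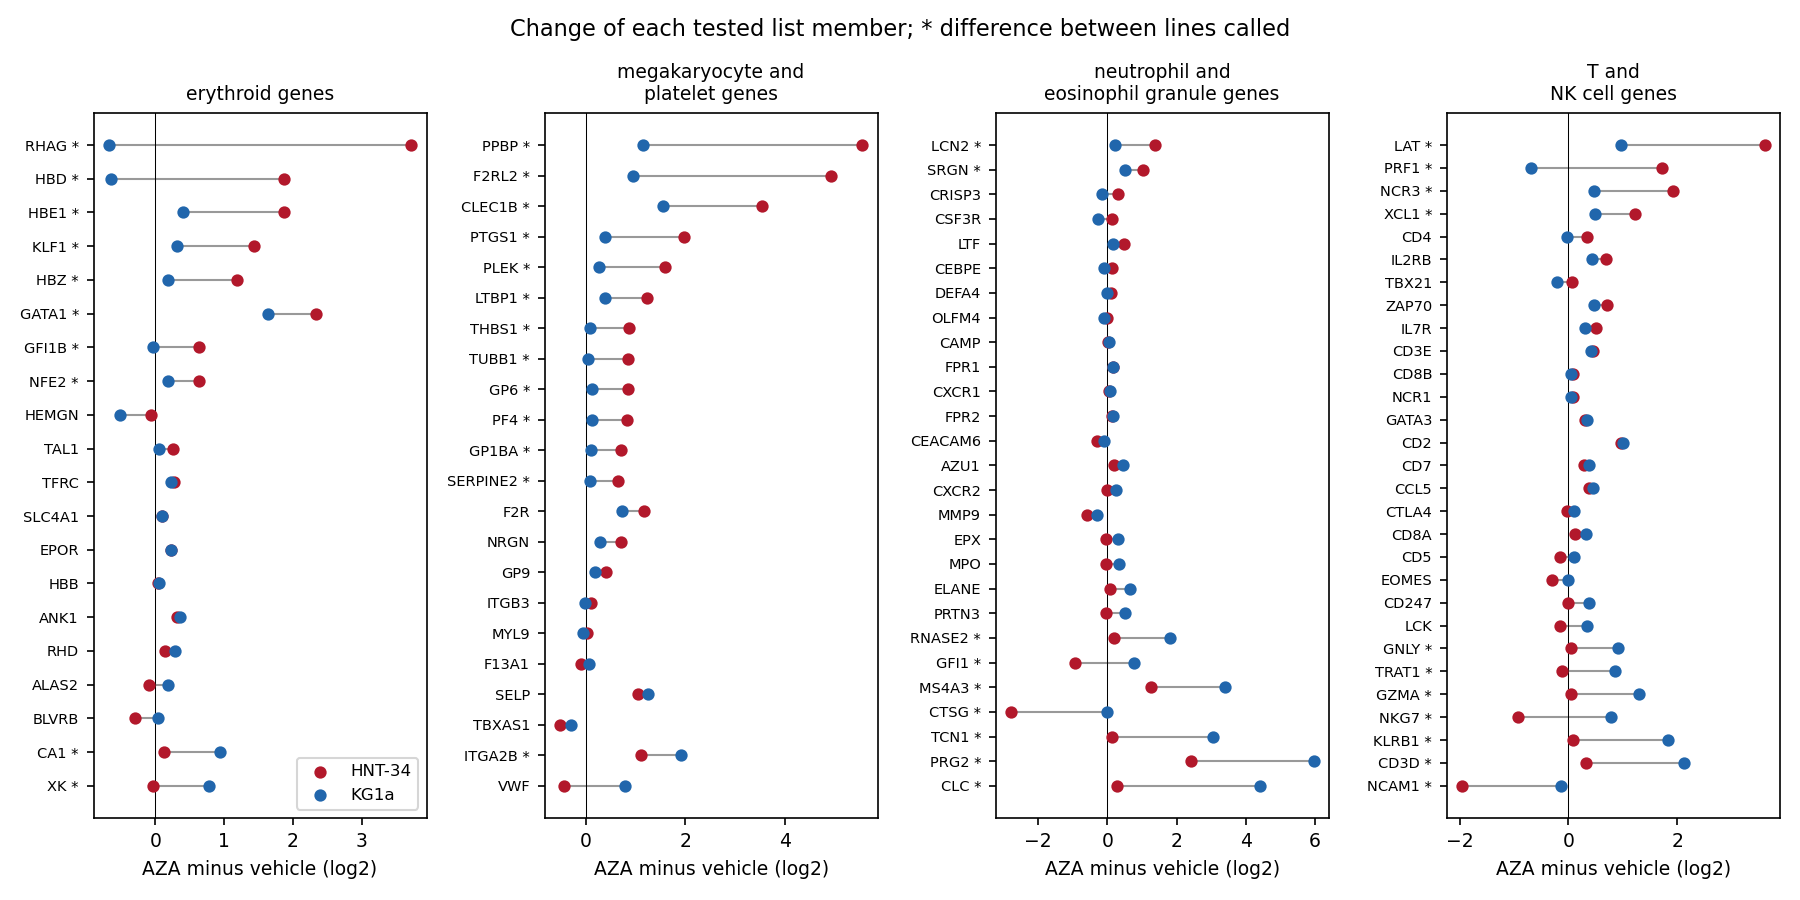
Change with AZA (log2) of each tested member of 4 blood lineage lists, in HNT-34 (red) and KG1a (blue), sorted by the difference, with an asterisk where the difference was called. PPBP, F2RL2 and RHAG lie far to the right in HNT-34, and PRG2, CLC and TCN1 in KG1a.

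Monocyte and macrophage genes were called below 0 in 9 of 29 members and above 0 in 3 (41.4%, against 15.2% over all genes). CLEC7A, the dectin receptor for fungal glucans, read 7.75 and 7.73 in HNT-34 with AZA against 10.18 and 10.08 with vehicle, and 7.80 and 7.92 in KG1a with AZA against 7.94 and 7.95 with vehicle (difference -2.30 ± 0.20). CLEC10A, a lectin of macrophages, fell by 2.01 in HNT-34 with a change of 0.03 in KG1a, and the integrin gene ITGAM fell by 1.70 with 0.17 in KG1a. The signalling adaptors FCER1G and TYROBP rose in both lines and further in HNT-34. TYROBP read 12.08 and 12.03 in HNT-34 with AZA against 8.87 and 8.80 with vehicle, and 10.84 on each KG1a AZA array against 8.64 and 8.75 with vehicle (difference 1.08 ± 0.11). In HNT-34 6 of the 29 genes rose and 5 fell, near the shares of all genes (15.4% higher and 14.8% lower). In KG1a 11 rose and 1 fell, where 6.56% of all genes rose and 3.37% fell.

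Genes of T and NK cells, which can be active in immature leukaemia, were called above 0 in 4 of 29 and below 0 in 7 (37.9%, against 15.2% over all genes). LAT, an adaptor of T cell receptor signalling that also serves platelets, read 11.28 and 11.22 in HNT-34 with AZA against 7.66 and 7.62 with vehicle, and 7.93 and 7.76 in KG1a with AZA against 6.89 and 6.87 with vehicle (difference 2.65 ± 0.12). PRF1, perforin, rose by 1.73 in HNT-34 and fell by 0.68 in KG1a. CD3D, a chain of the T cell receptor complex (-1.80 ± 0.11), the NK receptor gene KLRB1 (-1.77 ± 0.19) and the NK granule gene NKG7 (-1.70 ± 0.18) rose in KG1a, and NKG7 fell by 0.92 in HNT-34. NCAM1, the CD56 adhesion molecule, fell by 1.96 in HNT-34 with a change of -0.13 in KG1a.

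Stem and progenitor genes were split, with 6 of 24 called above 0 and 5 below (45.8%, against 15.2% over all genes). KIT, the stem cell factor receptor, read 9.89 on each HNT-34 AZA array against 10.73 and 10.84 with vehicle, and 10.93 and 10.92 in KG1a with AZA against 9.16 and 8.99 with vehicle. It fell in HNT-34 and rose in KG1a, which reversed the order of the lines (difference -2.75 ± 0.15, adjusted p = 7.76e-08). CD34 fell in HNT-34, to 10.39 and 10.59 with AZA against 11.80 and 11.69 with vehicle, and read 12.42 and 12.45 in KG1a with AZA against 12.46 and 12.64 with vehicle (difference -1.13 ± 0.19, adjusted p = 0.0011). SPINK2, a protease inhibitor of progenitors, fell by 0.83 in HNT-34 with a change of 0.28 in KG1a. The MECOM difference was not called (-0.40 ± 0.13, 95% interval -0.69 to -0.11, adjusted p = 0.0614), with a fall of 0.50 in HNT-34.

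The title of the study names the cell surface proteome, and the responses of surface protein genes differed in both directions. Of 40 leukaemia surface antigens and receptors 10 were called above 0 and 9 below (47.5%, against 15.2% over all genes). CD84, a receptor of the SLAM family, rose by 2.58 in HNT-34 and 0.43 in KG1a, and SIGLEC6, a sialic acid binding lectin, by 2.22 and 0.47 in the same order of lines. The lymphocyte activation gene TNFRSF8, known as CD30, fell by 1.98 in HNT-34 with a change of 0.05 in KG1a. CXCR4, the receptor that holds cells in the marrow, read 6.71 and 6.22 in HNT-34 with AZA against 6.71 and 6.91 with vehicle, and 10.62 and 10.63 in KG1a with AZA against 8.93 and 9.21 with vehicle (difference -1.90 ± 0.22). Of 36 integrin and adhesion genes 2 were called above 0 and 8 below (27.8%, against 15.2% over all genes), with ICAM3 (-1.01 ± 0.10) and the selectin ligand gene SELPLG (-0.80 ± 0.15) falling in HNT-34.

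In 116 genes AZA had called changes of opposite direction in the lines (0.278% of all genes up in HNT-34, 0.549% up in KG1a). The difference was called in all of them, which adds no support, since opposite changes add up in the difference. The 10 with the largest differences were RHAG, LOC105377276, FST, TRIB3, KIT, HBD, PRF1, RAB31, ADA2 and LNCEGFL7OS. LOC105377276, a locus of chromosome 4 without a described role, read 9.09 and 9.0 in HNT-34 with AZA against 5.77 and 5.72 with vehicle, and 10.82 and 10.76 in KG1a with AZA against 11.29 and 11.47 with vehicle (difference 3.90 ± 0.14). FST, follistatin, which binds and neutralises activins, read 9.02 and 9.06 in HNT-34 with AZA against 10.89 and 10.93 with vehicle. In KG1a it rose, to 9.23 and 9.32 with AZA against 7.96 and 8.13 with vehicle, so that the levels of the lines drew near each other (difference -3.09 ± 0.13). RAB31, a vesicle transport gene, rose by 2.02 in HNT-34 and fell by 0.39 in KG1a. ADA2, a secreted adenosine deaminase of myeloid cells, fell by 1.54 in HNT-34 and rose by 0.74 in KG1a. LNCEGFL7OS, a long noncoding RNA gene, fell by 1.16 in HNT-34 and rose by 0.87 in KG1a.

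Some genes moved in the same direction with no called difference. Of the 449 genes raised in both lines the difference was not called in 286, and of the 227 lowered in both it was not called in 169. The vitamin K dependent anticoagulant gene PROS1 read 7.59 and 7.63 in HNT-34 with AZA against 4.76 and 5.19 with vehicle, and 9.25 and 9.12 in KG1a with AZA against 6.75 and 6.82 with vehicle, a difference of 0.23 with a 95% interval of -0.15 to 0.62. APOBEC3B, a DNA cytidine deaminase gene, rose by 2.19 in HNT-34 and 1.88 in KG1a (interval of the difference 0.03 to 0.59, adjusted p = 0.137). The intervals were -0.28 to 0.39 for GAS2L1, a linker of actin and microtubules, and -0.05 to 0.40 for ID2, an inhibitor of lineage transcription factors. For the antisense RNA gene HECW2-AS1 the interval was 0.25 to 1.68, wide enough to hold a difference above 2-fold. Among shared falls, STMN3, a microtubule destabiliser, fell by 0.82 in HNT-34 and 0.79 in KG1a (interval -0.35 to 0.30), and RBPMS, an RNA-binding protein gene, by 1.92 and 1.52 in the same order. RFX3, GIMAP7 and RGL4 fell by 1.13, 1.16 and 1.10 in HNT-34 and by 0.87, 0.81 and 0.77 in KG1a.

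Among genes with a called difference that fell in KG1a and were not called in HNT-34, 4 of the 5 with the largest falls read under the array median on every HNT-34 array. The chemokine receptor gene CCR9 read 5.60 and 5.56 in HNT-34 with AZA against 5.49 and 5.53 with vehicle, and 6.34 and 5.94 in KG1a with AZA against 7.12 and 7.51 with vehicle. C6orf141, SHANK2, a synaptic scaffold gene, and NOG, noggin, an inhibitor of bone morphogenetic proteins, fell by 1.15, 1.03 and 1.07 in KG1a, with HNT-34 signals of 4.33 to 4.97. PSAT1, the other member of the 5, lay above that median in both lines.

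Genes of DNA methylation were called at a share near that of all genes. Of 21 tested, 2 were called above 0 and 2 below (19%, against 15.2% over all genes), each 1 to 3 under the alternatives, with 7 falls in HNT-34 and 1 in KG1a. UHRF1, which guides the maintenance methyltransferase to replicated DNA, read 10.98 and 10.86 in HNT-34 with AZA against 11.73 and 11.80 with vehicle, and 11.77 and 11.70 in KG1a with AZA against 12.02 and 11.86 with vehicle (difference -0.64 ± 0.11, adjusted p = 0.00125). DNMT1, the maintenance enzyme itself, fell by 0.46 in HNT-34 and changed by -0.13 in KG1a, a difference of -0.33 that was not called (interval -0.62 to -0.04). The intervals of the differences were -0.25 to 0.18 for DNMT3A and -0.34 to 0.38 for DNMT3B, the de novo enzymes. For the demethylating dioxygenases they were -0.29 to 0.36 for TET1, -0.07 to 0.87 for TET2 and -0.71 to -0.03 for TET3, and none of these 3 was called in limma.

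Genes of AZA handling were called above 0 in 2 of 22 members and below 0 in 4 (27.3%, against 15.2% over all genes). CDA, cytidine deaminase, which inactivates the drug, read 7.36 and 7.40 in HNT-34 with AZA against 8.86 and 8.79 with vehicle, and 6.40 and 5.92 in KG1a with AZA against 5.89 and 6.55 with vehicle. It fell in HNT-34, where it was brighter in both arms (difference -1.38 ± 0.30, adjusted p = 0.00643). The efflux pump gene ABCC4 rose by 2.22 in HNT-34 and 0.80 in KG1a (difference 1.42 ± 0.14). ABCB1, another efflux pump, read 5.49 and 5.83 in HNT-34 with AZA against 4.76 and 4.94 with vehicle, and 11.11 and 11.10 in KG1a with AZA against 11.50 on each vehicle array (difference 1.20 ± 0.20).

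Interferon-stimulated genes were called above 0 in 15 of 59 members and below 0 in 5 (33.9%, against 15.2% over all genes). Under the alternatives 11 to 15 were called above 0 and 2 to 5 below, with 2 below when any 1 of the 4 AZA arrays was left out and 3 when either KG1a vehicle array was. RSAD2, an antiviral enzyme, read 8.49 and 8.63 in HNT-34 with AZA against 7.02 and 7.15 with vehicle, and 11.86 and 11.78 in KG1a with AZA against 12.12 and 12.07 with vehicle (difference 1.76 ± 0.20). CMPK2, a nucleotide kinase gene, differed by 1.92 ± 0.36. IFI27 and IFIT1 rose by 1.90 and 1.16 in HNT-34 and changed by 0.96 and 0.28 in KG1a. The chemokine gene CXCL10 ran the other way and rose in KG1a (difference -1.52 ± 0.15). XAF1 (1.19 ± 0.21) lost its call when probe sets were averaged. Over the list 22 genes rose and 8 fell in HNT-34, and 12 rose and 4 fell in KG1a. Of 14 genes that sense RNA and DNA 0 were called above 0 and 1 below (7.14%, under the 15.2% over all genes). The corresponding counts were 3 and 0 of 18 HLA class I presentation genes (16.7%, near the 15.2% over all genes), with HLA-B at 0.59 ± 0.09, and 1 and 0 of 13 class II genes (7.69%). The class II call, HLA-DPA1, was lost in each fit that left out 1 array.

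Histone genes responded more strongly upward in HNT-34 in 9 of 19 members and less in 1 (52.6%, against 15.2% over all genes). H2BC5 read 11.33 and 11.35 in HNT-34 with AZA against 9.54 and 9.48 with vehicle, and 10.33 and 10.34 in KG1a with AZA against 9.86 and 9.94 with vehicle (difference 1.39 ± 0.21). H2AC6 (1.20 ± 0.12), the linker histone gene H1-2 (1.16 ± 0.11) and H2BC21 (1.24 ± 0.15) were alike. Mitosis and spindle genes were called above 0 in 8 of 48 members and below 0 in 0, a share of 16.7% that is near the 15.2% over all genes. The 8 became 4 without KG1a AZA array 1 and 5 without HNT-34 AZA array 2. BUB1, a spindle checkpoint kinase, rose by 0.96 in HNT-34 with a change of -0.05 in KG1a, though its probe sets ranged from 0.06 to 1.42 for the difference. DNA replication genes were called below 0 in 4 of 47 members, a share of 8.51% that is under the 15.2% over all genes. In HNT-34 22 of them fell and 3 rose, and in KG1a 3 fell and 0 rose. MCM3 and MCM5, subunits of the replicative helicase, differed by -0.50 ± 0.09 and -0.53 ± 0.12. Of 33 MYC and ribosome biogenesis genes 4 were called below 0 and 0 above, a share of 12.1% that is under that of all genes. The 4 became 1 without HNT-34 AZA array 1, KG1a AZA array 1 or KG1a AZA array 2, and 2 without HNT-34 vehicle array 1, HNT-34 vehicle array 2, HNT-34 AZA array 2 or KG1a vehicle array 2.

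Transcription factor lists gave counts in both directions. Of 36 AP-1 and immediate early genes 3 were called above 0 and 8 below (30.6%, against 15.2% over all genes), with the nuclear receptor gene NR4A2 (2.67 ± 0.19) after EGR3 and with ATF3 and KLF6 (-0.88 ± 0.13) below. Myeloid transcription factor genes split 7 above and 7 below of 33 (42.4%), and the 7 below became 4 without HNT-34 AZA array 2, KG1a vehicle array 2 or KG1a AZA array 2, and with averaged probe sets. ZFPM1, the GATA1 partner FOG, rose by 1.20 in HNT-34 with a change of 0.33 in KG1a, and CEBPB fell by 1.19 in HNT-34 and 0.32 in KG1a. Of 16 HOX, MEIS and PBX genes 2 were called above 0 and 5 below (43.8%), with HOXB5 at 0.97 ± 0.21 and HOXB9 at -0.93 ± 0.18. The 5 became 2 without HNT-34 vehicle array 2, HNT-34 AZA array 1 or KG1a AZA array 2, and 3 without HNT-34 AZA array 2, KG1a vehicle array 2 or KG1a AZA array 1.

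Stress lists gave smaller groups. Unfolded protein response genes were called below 0 in 9 of 27 members (6 to 11 under the alternatives) and above 0 in 1 (37%). Those below included ERO1A, an oxidase of the endoplasmic reticulum (-1.21 ± 0.13), and HERPUD1 (-1.02 ± 0.12) and SEL1L (-0.90 ± 0.09), which serve protein disposal there. ERN1, the sensor IRE1, rose by 1.17 in KG1a with 0.04 in HNT-34, and its probe sets ranged from -1.13 to -0.08. Metallothionein and NRF2 target genes split 4 above and 3 below of 27 (25.9%; 1 below without HNT-34 AZA array 2 or KG1a AZA array 1), with MT1X (0.93 ± 0.09) and MT2A (0.86 ± 0.11) rising in HNT-34. Targets of TNF and NF-kB split 4 above and 3 below of 31 (22.6%, against 15.2% over all genes). The p53 targets split 5 and 2 of 30 (23.3%), with 3 above without KG1a AZA array 2. Apoptosis regulators split 3 and 2 of 21 (23.8%), a count that became 1 and 1 without HNT-34 AZA array 1 or KG1a AZA array 2 and 5 and 0 with averaged probe sets. Imprinted genes split 2 and 2 of 15 (26.7%), each 1 to 2 under the alternatives. Of 25 housekeeping genes 1 was called (CHMP2A, 0.31 ± 0.09), 4% against 15.2% over all genes, and that call was lost in each fit that left out 1 array.

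**Figure D5:**
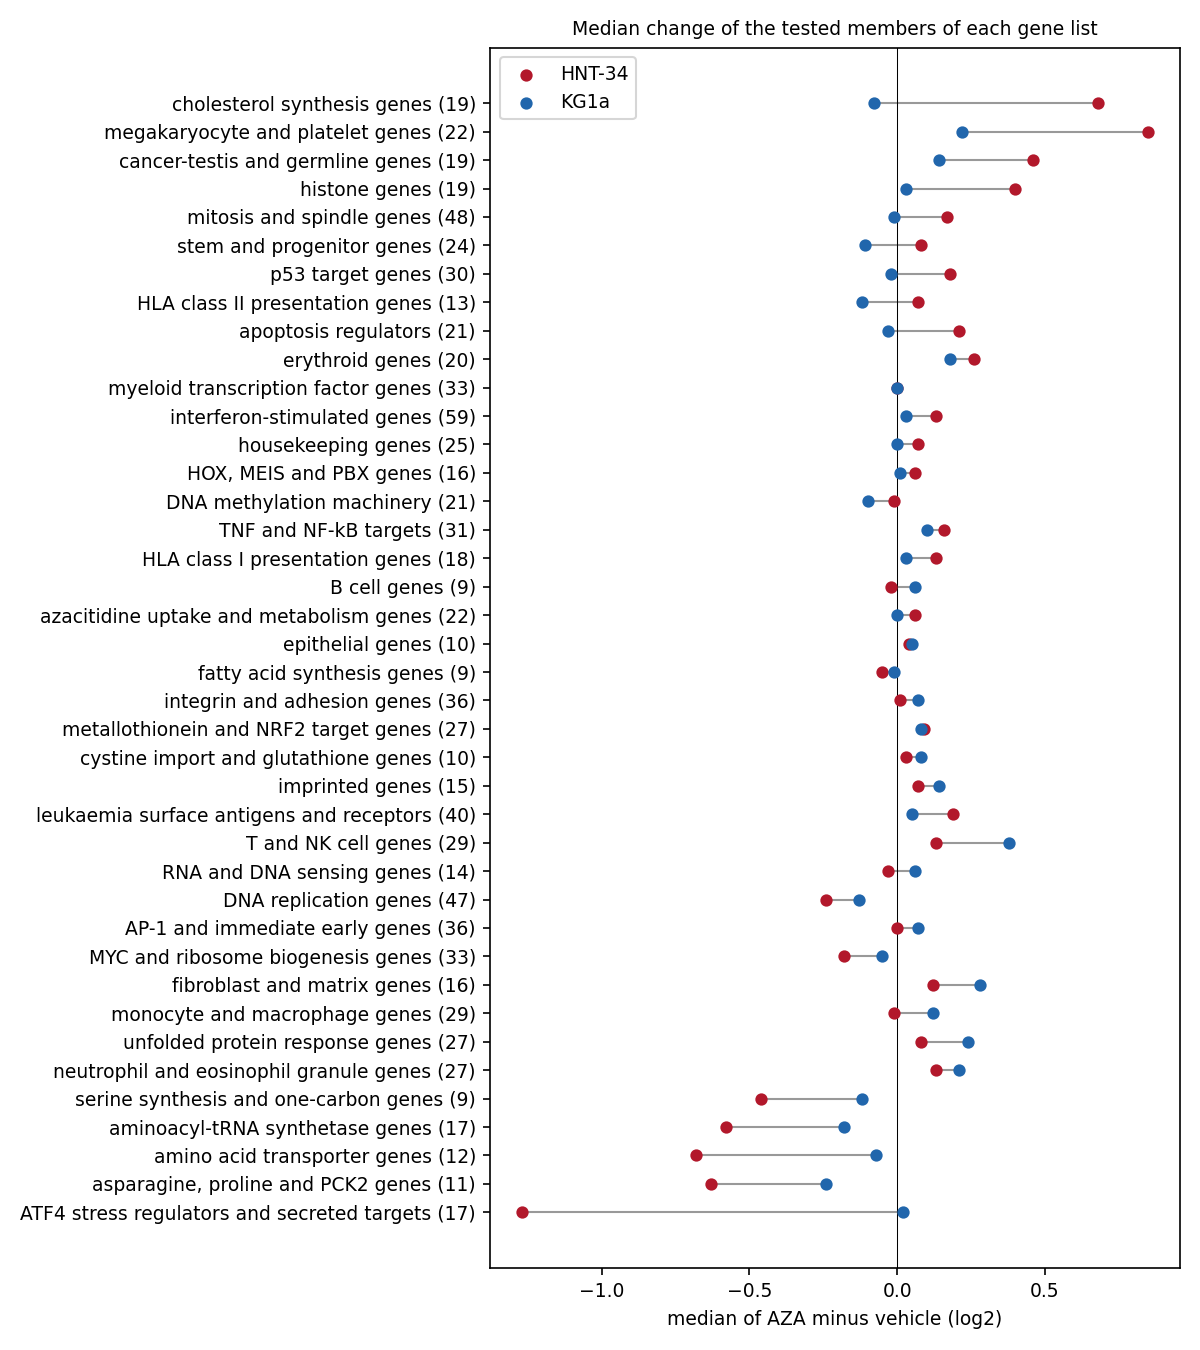
Median change with AZA (log2) of the tested members of each of 40 lists, in HNT-34 (red) and KG1a (blue), sorted by the median difference, with the number of members in brackets. ATF4 regulators and targets lie at -1.27 in HNT-34 and 0.02 in KG1a, and cholesterol genes at 0.68 in HNT-34 and -0.08 in KG1a.

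The remaining lines, AML-193 and HL60, place some of these genes, although their 3′ minus 5′ signals differed between arms (0.20 with AZA against 1.27 with vehicle in AML-193, and 0.72 against 0.04 in HL60). The part of that difference in their values was not tested here. MAGEA4 rose by 0.36 in AML-193 and 0.60 in HL60, against 5.21 in HNT-34. ZNF595 rose in HL60 (6.42), close to its rise in HNT-34 (6.47), with 0.20 in AML-193. PPBP rose by 4.86 in AML-193 and 1.34 in HL60. CLC and COL14A1 rose in HL60, by 6.60 and 4.88, as they did in KG1a. The falls of some ATF4 and amino acid genes were not particular to HNT-34. ASNS changed by -2.59 in AML-193 and -1.29 in HL60, CHAC1 by -1.68 and -2.04, and AARS1 by -1.33 and -0.88. ATF5 changed by 0.21 in AML-193, which was not called, and by -0.70 in HL60. RHAG (0.10 in AML-193 and -0.23 in HL60) and HBD (-0.01 and -0.12) showed no called change there.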

How the data were processed

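RNA of 4 lines was hybridised to HG-U133 Plus 2.0 arrays. The deposited values are log2 signals of 54675 probe sets, made by the authors with RMA in affy per the submitters' processing notes, versions not given in the sources used here. RMA compresses changes near background, and no detection calls were used. Gene names came from the platform annotation: 41097 probe sets had 1 symbol, 1801 several and 11777 none. Each of 19775 genes was represented by the probe set of highest mean signal across the 16 arrays, and 14038 at or above the array median on at least 2 arrays were tested. A gene dim with vehicle could pass this filter through arrays where it rose. The share called in a list that holds such genes is therefore not independent of the response. limma 3.58.1 in R 4.3.3 fitted all 8 groups, which share one estimate of the spread, with Benjamini-Hochberg adjustment over all genes. With 2 arrays a group the number of arrays limits the precision. On simulated data of this design, over 14038 genes, 35.8% of 67 genes with a difference of 0.5, 85.1% of 67 with 1 and 100% of 66 with 2 (log2) were called. Only these genes responded in the simulation, in HNT-34 alone and with normally distributed noise. In the data 15.2% of genes were called, and the adjustment depends on that share, so the rates need not hold there.

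The members and lists were chosen with earlier results of these data known. Genes were named by rule: the 15 largest differences in each direction among called genes whose array differences did not overlap, the 10 largest opposite changes, 5 shared rises and 5 shared falls, 5 rises and 5 falls of KG1a alone, up to 6 called members of each of 40 lists, and DNA methylation genes, CD34 and MECOM. Exceptions are ATF4, BCAT1, COL1A1, EPCAM and PTPRC, named after their values were seen. Alternatives changed the arrays in the fit, the filter, the probe set rule, the normalization, the variance prior and the RNA covariate, or left out 1 array.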

Additional observations from a re-analysis of the deposited data

Results flagged for a closer look

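In 116 genes the change with AZA was called in both lines in opposite directions (0.278% of all genes up in HNT-34, 0.549% up in KG1a). The difference of responses was called in each, which follows nearly by construction, since opposite changes add up in it. The 10 largest differences (HNT-34 change minus KG1a change, log2) were 4.40 for RHAG, 3.90 for LOC105377276, -3.09 for FST, -2.93 for TRIB3, -2.75 for KIT, 2.51 for HBD, 2.42 for PRF1, 2.41 for RAB31, -2.29 for ADA2 and -2.03 for LNCEGFL7OS.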

How the results depend on the processing

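The number of genes whose responses differed was 2130 and ranged over 1421 to 2339 under the alternatives, always within 1.5 times. Leaving out 1 array gave 1421 to 2066 genes for the difference, 2892 to 4407 for HNT-34 and 688 to 1310 for KG1a, where 698, 688 and 878 were called without KG1a AZA array 1, AZA array 2 and vehicle array 1. Averaging the probe sets of a gene gave 2063 genes and turned RUNX2 from -0.98 to 0.01 (adjusted p = 0.978). Of 220 named genes, 40 lost a call under at least 1 alternative and 7 gained one, MECOM, TET2 and TET3 among them, and none of the 34 with the largest or opposite differences lost it. A second quantile normalization changed no count, with 2130 genes again. No paired analysis was possible because the labels give no replicate numbers that tie arrays of different groups. Signals near background limit the changes that can be seen in dim genes.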
